A study of Homo sapiens with 12 samples.

Results

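The genes described here are 10 transcripts that the Ras-ERK pathway induces and that mostly act back on it: DUSP4, DUSP5, DUSP6, SPRY2, SPRY4, SPRED1, SPRED2, ETV4, ETV5 and PHLDA1. They were chosen by name as known ERK feedback and output genes, and each matched 1 of the 41878 gene rows of the deposited raw counts. All 10 passed the filter on low counts, as did 18030 genes in all. The cells were HEK293T, a human embryonic kidney line that carries the SV40 large T antigen and is easily transfected. They were transiently transfected with 1 µg of a control vector or of a plasmid encoding TRPML3, the endolysosomal cation channel that the gene MCOLN3 specifies. Before lysis they stayed in 10% serum (fed) or were left in 0% serum for 4 h (starved), and polyadenylated RNA was sequenced. The 4 groups are therefore vector fed, vector starved, TRPML3 fed and TRPML3 starved, with 3 biological replicates each (12 libraries). The promoter of the plasmid and the share of cells that took it up are not given in the sources used here.

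Serum growth factors bind receptor tyrosine kinases, which load Ras with GTP and so activate Raf, MEK and the kinase ERK. ERK then induces genes whose products dampen the same cascade: dual-specificity phosphatases (DUSP) remove phosphate from ERK, and Sprouty (SPRY) and SPRED proteins restrain Ras and Raf. The ETS-family factors ETV4 and ETV5 and the protein PHLDA1 belong to the same transcriptional output. Levels of these messenger RNAs are widely used as a readout of ERK pathway activity, which was itself not measured here.

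Library totals ran from 33101540 to 43700547 counts. All 10 HEK293T markers examined averaged at least 1 CPM (counts scaled to a common library total with the TMM factors of edgeR). Of 13 markers of other cell types, COL1A1 and COL3A1 reached that mean and HBB and INS had 0 counts in every library. MCOLN3 stood at 9.305 to 18.45 CPM in the 6 vector libraries and at 4929 to 58220 CPM in the 6 TRPML3 libraries, in accordance with the labels. The fed replicate 3 libraries of both plasmids stood apart from their label. By rank correlation over all genes tested, vector fed replicate 3 was nearer to starved replicates 1 and 2 of its plasmid (mean rho 0.951) than to fed replicates 1 and 2 (0.936), and TRPML3 fed replicate 3 likewise (0.945 against 0.935). The starved replicate 3 libraries also lay apart from replicates 1 and 2: with TRPML3, replicate 3 had 0.93 to its starved replicates 1 and 2 and 0.932 to the fed ones, and in vector cells 0.939 to the starved ones, where starved replicates 1 and 2 had 0.959 to each other. The tests for starvation are therefore given with all 12 libraries and without replicate 3. The share of mitochondrial counts was 4.826 to 5.699% in the 4 replicate 3 libraries and 1.046 to 4.399% in the others, and its part in the results was not tested.

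DUSP6, SPRY4, DUSP5 and SPRY2 were high in fed replicates 1 and 2 of both plasmids and low in every starved library, and fed replicate 3 of both plasmids lay far below the other fed libraries. DUSP4 had the same order. With all 12 libraries no ERK feedback gene passed the test for starvation. Without replicate 3, DUSP6, SPRY4, DUSP5 and SPRY2 were lower in starved libraries by 1.84-fold (SPRY2) to 11.3-fold (SPRY4). In edgeR they passed only with fed replicate 3 of both plasmids left out. As those libraries lay far below the other fed ones, the folds describe only the libraries kept. In TRPML3 cells all fed libraries lay above all starved ones for SPRY2, SPRY4, SPRED1, SPRED2 and ETV5. Over both plasmids, fed replicates 1 and 2 did not lie above all 6 starved libraries for SPRED1, SPRED2, ETV4, ETV5 and PHLDA1.

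**Figure D1:**
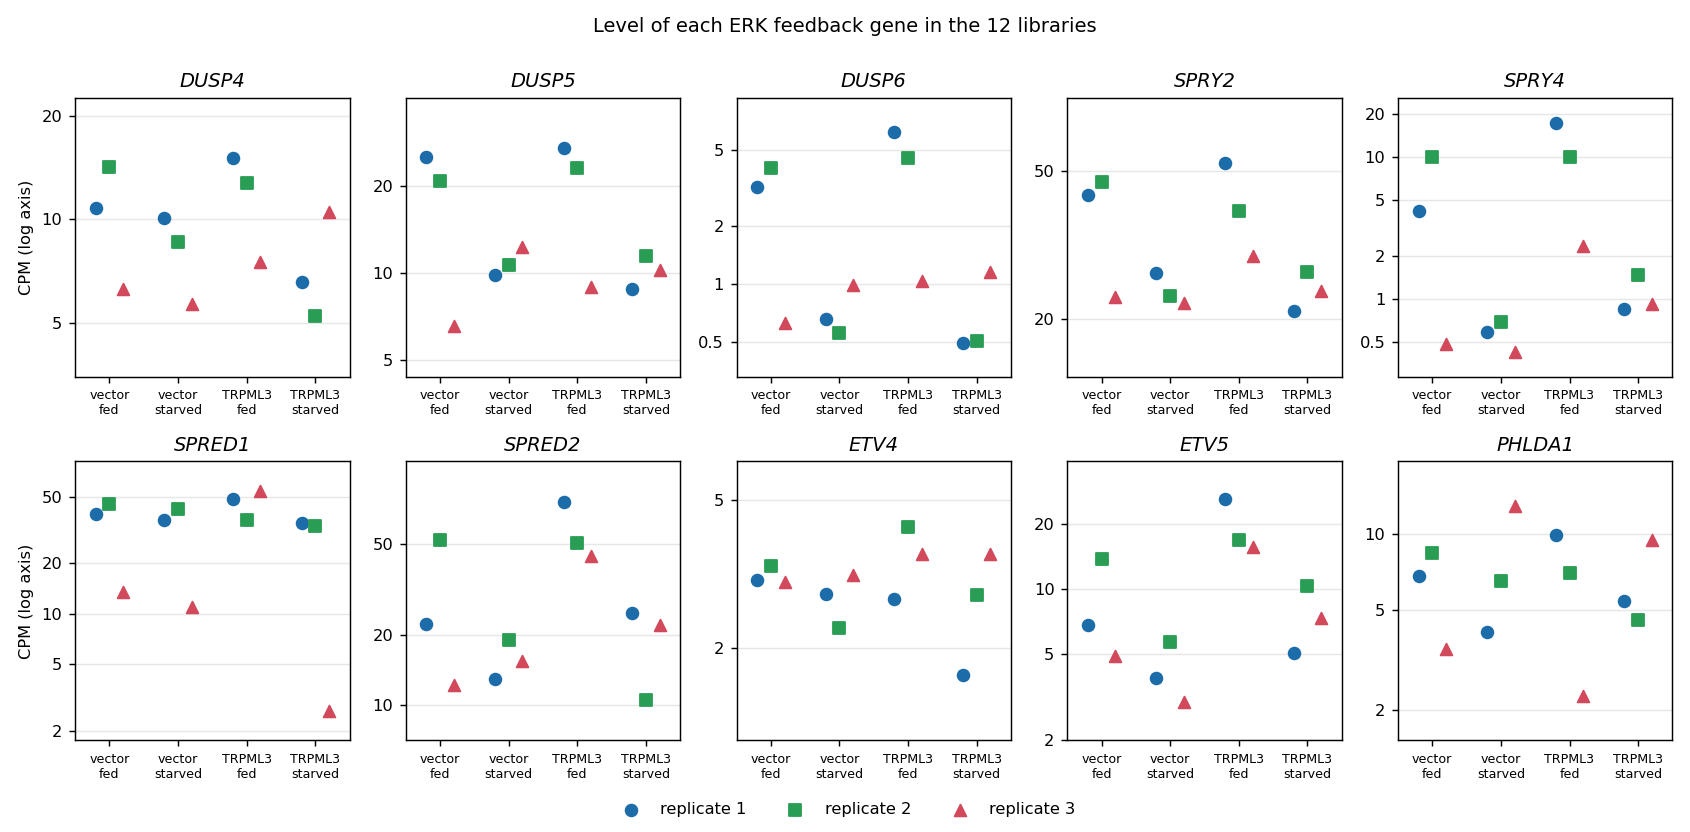
Level of each ERK feedback gene in CPM (log axis) in the 12 libraries, by group, with points for replicates 1, 2 and 3 marked by their own symbols. DUSP6 and SPRY4 show the widest gap: fed replicates 1 and 2 lie above all starved libraries, while fed replicate 3 lies near them.

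Among the phosphatases, DUSP6 is a cytoplasmic enzyme specific for ERK. It stood at 3.21, 4.02 and 0.631 CPM in vector fed replicates 1, 2 and 3 and at 0.661, 0.5615 and 0.990 CPM in vector starved ones. With TRPML3 it stood at 6.22, 4.51 and 1.04 CPM when fed and at 0.4965, 0.509 and 1.16 CPM when starved. The 4 high values were those of fed replicates 1 and 2, and both fed replicate 3 values fell inside the range of the starved libraries. Counts behind these values ran from 17 to 259, so the low values carry a sizeable counting error. Averaged over both plasmids and all 12 libraries, starved minus fed gave a log2 fold change of -2.13 ± 0.54 (SE), 4.38-fold lower (edgeR quasi-likelihood test, Benjamini-Hochberg adjusted p = 0.349 over 18030 genes).

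DUSP5, a nuclear phosphatase for ERK, was measured at 25.3, 20.8 and 6.54 CPM in vector fed and 9.84, 10.7 and 12.3 CPM in vector starved replicates 1, 2 and 3. In TRPML3 cells it was measured at 27.1, 23.1 and 8.97 CPM fed and at 8.79, 11.4 and 10.25 CPM starved. Vector fed replicate 3 was the lowest of the 12 libraries, below every starved one. The average starvation difference was -0.82 ± 0.35 on the log2 scale (edgeR adjusted p = 0.496).

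DUSP4, a nuclear phosphatase that acts on ERK and other MAP kinases, had a narrower range. Its levels were 10.8, 14.2 and 6.28 CPM in vector fed, 10.1, 8.58 and 5.67 CPM in vector starved, 15.05, 12.7 and 7.53 CPM in TRPML3 fed and 6.60, 5.24 and 10.5 CPM in TRPML3 starved replicates 1, 2 and 3. Fed replicates 1 and 2 again held the 4 highest values, but the gap to the highest starved library was small. The average starvation difference was -0.51 ± 0.29 (edgeR adjusted p = 0.635).

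SPRY2 and SPRY4 encode Sprouty proteins, which block signalling from receptor tyrosine kinases to Ras and Raf. SPRY2 stood at 43.1, 46.7 and 23.0 CPM in vector fed, 26.7, 23.2 and 22.1 CPM in vector starved, 52.5, 39.2 and 29.6 CPM in TRPML3 fed and 21.1, 26.8 and 23.9 CPM in TRPML3 starved replicates 1, 2 and 3. The starved libraries lay close together, and vector fed replicate 3 lay among them. TRPML3 fed replicate 3 stayed above all 6 starved libraries. The average starvation difference was -0.70 ± 0.21 (edgeR adjusted p = 0.367).

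SPRY4 had the largest starvation difference of the 10 genes. Its levels were 4.17, 9.98 and 0.488 CPM in vector fed and 0.588, 0.695 and 0.428 CPM in vector starved replicates 1, 2 and 3. In TRPML3 cells they were 17.4, 9.95 and 2.35 CPM fed and 0.847, 1.47 and 0.926 CPM starved. Vector fed replicate 3 lay inside the vector starved range, whereas TRPML3 fed replicate 3, at 17.2% of the mean of fed replicates 1 and 2, still lay above every starved library. The average difference was -3.14 ± 0.67, or 8.84-fold lower (edgeR adjusted p = 0.342).

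Upstream sequence is shown for the Sprouty genes because both moved together and because their windows, unlike those of DUSP6, SPRED1 and PHLDA1, lie at least partly outside annotated exons. RefSeq promoter entries (GRCh38.p14) matched 6 of the 10 genes, with 3 starts for SPRY2 and 2 for SPRED2. The 250 bases before the first of the SPRY2 starts are chr13:80341127-80341376 on the minus strand, and the SPRY4 stretch is the 80 bases of its window that lie outside GENCODE 29 exons, chr5:142324418-142324497 on the minus strand. Capitals mark matches to CCGGAA, the core that ETS factors bind together with flanking bases, on either strand. Shorter forms of the core were not searched for and are not marked.
SPRY2: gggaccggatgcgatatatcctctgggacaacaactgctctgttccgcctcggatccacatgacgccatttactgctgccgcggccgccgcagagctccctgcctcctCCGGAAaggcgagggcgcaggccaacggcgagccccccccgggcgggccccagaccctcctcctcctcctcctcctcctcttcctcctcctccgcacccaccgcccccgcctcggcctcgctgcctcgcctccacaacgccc
SPRY4: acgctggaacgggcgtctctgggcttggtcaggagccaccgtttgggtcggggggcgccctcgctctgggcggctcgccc
The SPRY2 window shown held 1 match to CCGGAA, starting 142 bases before the start. The windows of its other starts, chr13:80340109-80340358 and chr13:80339660-80339909, held 0. The 250-base window of PHLDA1 held 1 on the opposite strand. The windows of DUSP6, SPRY4, SPRED1 and SPRED2 held none. CCGGAA occurs in 14.5% of all 35116 promoter windows of this length. No window of these genes held the CRE TGACGTCA (1.65% of all windows), the AP-1 site TGANTCA (6.57%) or a CArG box (1.16%), and none of the motifs searched overlapped another. A match is a description of letters and no evidence of binding.

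SPRED1 and SPRED2 recruit neurofibromin, which switches Ras off. SPRED2 stood at 22.4, 52.1 and 12.1 CPM in vector fed, 12.9, 19.15 and 15.5 CPM in vector starved, 76.2, 50.7 and 44.4 CPM in TRPML3 fed and 25.0, 10.5 and 22.3 CPM in TRPML3 starved replicates 1, 2 and 3. In TRPML3 cells all fed libraries lay above all starved ones, and in vector cells fed replicate 3 was the lowest of the 6. The average starvation difference was -1.22 ± 0.36 (edgeR adjusted p = 0.363).

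SPRED1 varied in another way, with 39.3, 45.5 and 13.5 CPM in vector fed and 36.3, 42.1 and 11.03 CPM in vector starved replicates 1, 2 and 3. TRPML3 cells gave 48.3, 36.5 and 54.2 CPM when fed and 34.7, 33.2 and 2.63 CPM when starved. In both vector groups and in TRPML3 starved cells replicate 3 was the lowest library by far, and in TRPML3 fed cells it was the highest. The average starvation difference was -0.56 ± 0.56 (edgeR adjusted p = 0.824).

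ETV5, a transcription factor of the PEA3 group of ETS proteins, stood at 6.84, 13.8 and 4.91 CPM in vector fed and 3.87, 5.70 and 2.99 CPM in vector starved replicates 1, 2 and 3. The TRPML3 libraries had 26.0, 16.9 and 15.7 CPM fed and 5.05, 10.3 and 7.38 CPM starved. All TRPML3 fed libraries lay above the other 9. Its average starvation difference was -1.20 ± 0.32, 2.29-fold lower (edgeR adjusted p = 0.349).

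ETV4, of the same group, was flat and low: 3.05, 3.335 and 3.01 CPM in vector fed, 2.79, 2.27 and 3.15 CPM in vector starved, 2.71, 4.25 and 3.59 CPM in TRPML3 fed and 1.69, 2.785 and 3.59 CPM in TRPML3 starved replicates 1, 2 and 3. All groups overlapped (-0.29 ± 0.22, edgeR adjusted p = 0.76). The ETV4 span shares 51777 bases with DHX8 on the opposite strand, and the use of strand in counting is not given in the sources used here, so its level is uncertain. PHLDA1, an ERK-induced protein with a pleckstrin homology-like domain, had 6.81, 8.43 and 3.5 CPM in vector fed, 4.09, 6.525 and 12.97 CPM in vector starved, 9.96, 7.03 and 2.28 CPM in TRPML3 fed and 5.43, 4.58 and 9.495 CPM in TRPML3 starved replicates 1, 2 and 3. Replicate 3 was the lowest library in both fed groups and the highest in both starved groups. PHLDA1 alone had a positive average starvation difference (0.17 ± 0.42, edgeR adjusted p = 0.945).

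Per length of exon the genes lay at very different levels. As means over the 12 libraries, which pool the 4 groups, in CPM per kb of merged GENCODE 29 exons, SPRY2 was highest at 10.4 ± 3.59 (SD, n = 12). SPRED2 (5.87 ± 4.02) and DUSP5 (5.58 ± 2.79) came next and did not differ beyond their spread, nor did DUSP5 from SPRED1 (4.01 ± 1.92). ETV5 (1.72 ± 1.19) and DUSP4 (1.3 ± 0.46) followed, then PHLDA1 (0.838 ± 0.38) and ETV4 (0.837 ± 0.183), again closer than their spread. SPRY4 (0.625 ± 0.83) and DUSP6 (0.432 ± 0.424), the genes with the widest differences, were the lowest of these means. The order at the low end depended on the group: in TRPML3 fed cells SPRY4 (1.51) was above ETV4 (0.974), and PHLDA1 (0.796) was below DUSP6 (0.847). In GENCODE 29 (GRCh38) SPRY2 lies at chr13:80335976-80340951, SPRY4 at chr5:142310427-142326455, DUSP6 at chr12:89347232-89353271, DUSP5 at chr10:110497838-110511544, SPRED2 at chr2:65310851-65432637, ETV5 at chr3:186046308-186110318, and all are protein-coding.

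To ask how starvation acted on the genes as a group, starved and fed libraries were compared over both plasmids and within each. With all 12 libraries edgeR called 0 of the 10 genes at an adjusted p of 0.05, and it called 0 genes in all (0%). At an unadjusted p of 0.05, 6 of the 10 were lower (DUSP5, DUSP6, SPRY2, SPRY4, SPRED2 and ETV5) and 0 higher, where 4.79% of all genes tested were lower. The median log2 fold change of the 10 was -0.76, against 0.0062 for all genes tested, and 9 of the 10 were negative. In bulk RNA, fewer cells with the transcript and less transcript per cell cannot be told apart. The DESeq2 Wald test called 3 of the 10, all lower: SPRY4 (adjusted p = 0.000317), DUSP6 (0.0109) and ETV5 (0.0217). It called 0.754% of all genes tested as lower.

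Leaving out replicate 3 of all groups leaves 8 libraries, and edgeR then called 4 of the 10, all lower in starved cells. It called 1.94% of all 18052 genes tested as lower. DUSP6 fell by 2.97 ± 0.22 on the log2 scale (7.85-fold, adjusted p = 0.0234) and SPRY4 fell by 3.5 ± 0.42 (11.3-fold, adjusted p = 0.0259). DUSP5 fell by 1.23 ± 0.18 (2.34-fold, adjusted p = 0.0305) and SPRY2 fell by 0.88 ± 0.17 (1.84-fold, adjusted p = 0.0485). These are ERK phosphatases and Sprouty proteins. The other 6 were also negative but did not pass, from -0.21 for SPRED1 (edgeR adjusted p = 0.478) to -1.52 for SPRED2 (adjusted p = 0.0975), with DUSP4 at -0.82 (adjusted p = 0.0711) and ETV5 at -1.29 (adjusted p = 0.111). Leaving out only the fed replicate 3 libraries, a choice made after seeing the data, gave the same 4 calls (DUSP5, DUSP6, SPRY2 and SPRY4), with 0.954% of all genes tested lower. Without replicate 1 or replicate 2 of all groups, or any single library, edgeR called 0 of the 10. The share of all genes called in these fits is not given here. With all 12 libraries that share was 0%, so 0 of the 10 says nothing particular to these genes. In edgeR the 4 calls came only with fed replicate 3 of both plasmids left out, and describe the libraries kept.

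**Figure D2:**
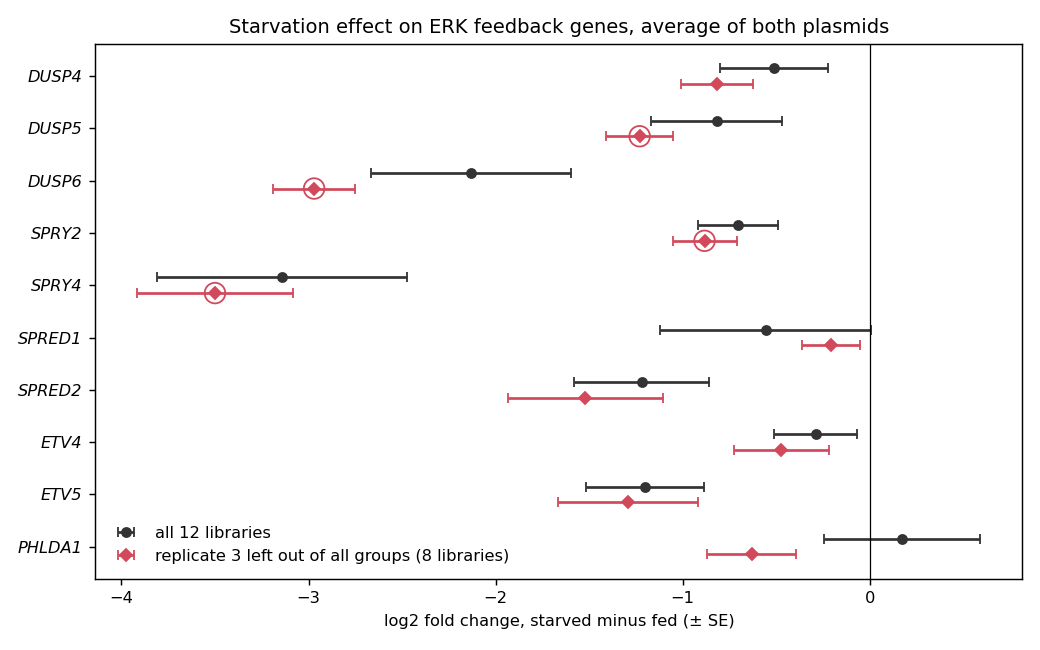
Average starvation log2 fold change (starved minus fed, with SE) of the 10 genes with all 12 libraries and without replicate 3 of all groups. Circled points have an adjusted p under 0.05: DUSP5, DUSP6, SPRY2 and SPRY4 are circled without replicate 3 and none with all 12 libraries.

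Counting libraries needs no model, but it reads the same values as the fits and is no separate support for their calls. The first count again leaves out fed replicate 3. Fed replicates 1 and 2 of both plasmids (4 libraries) lay above all 6 starved libraries for 5 of the 10 genes (DUSP4, DUSP5, DUSP6, SPRY2 and SPRY4), where 5.74% of all genes tested did so. With fed replicate 3 included, 0 of the 10 had all 6 fed above all 6 starved libraries (0.499% of all genes tested). In no comparison did fed libraries lie entirely below starved ones for any of the 10. Of all genes tested, 0.754% had all 6 fed below all 6 starved libraries. Fed replicates 1 and 2 lay below all 6 starved ones for 4.41%. Within vector and TRPML3 cells the shares were 5.36% and 5.56%, so 0 of the 10 is near these shares.

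Within vector cells the starvation differences were -3.09 ± 0.95 for SPRY4, -1.82 ± 0.75 for DUSP6 and -1.03 ± 0.45 for ETV5. In edgeR 0 of the 10 passed (adjusted p = 1 for each of these), where 0.00555% of all genes did, and DESeq2 called 0 too (0.238% of all genes). SPRY4, DUSP6 and ETV5 were lower at an unadjusted p under 0.05, as were 2.21% of all genes. Within TRPML3 cells the differences were -3.19 ± 0.95 for SPRY4, -2.44 ± 0.77 for DUSP6, -1.57 ± 0.51 for SPRED2 and -1.36 ± 0.45 for ETV5. There edgeR called 0 of the 10 (smallest adjusted p = 0.812) and 0% of all genes, and DESeq2 called SPRY4, with 0.488% of all genes. At an unadjusted p under 0.05, 5 of the 10 were lower, against 2.97% of all genes. Without replicate 3, DUSP6 had -2.54 ± 0.30 in vector cells (5.83-fold lower, edgeR adjusted p = 0.128) and -3.4 ± 0.32 in TRPML3 cells (10.6-fold lower, adjusted p = 0.0825), larger than with all 12 libraries. SPRY4 then had -3.44 ± 0.59 (edgeR adjusted p = 0.138) and -3.55 ± 0.59 (adjusted p = 0.104). Within a plasmid, edgeR called 0 of the 10 without replicate 3 (0% of all genes in vector cells, 0.00554% in TRPML3 cells) and 0 without both fed replicate 3 libraries (0% and 0.00536%). All 3 TRPML3 fed libraries lay above all 3 starved ones for SPRY2, SPRY4, SPRED1, SPRED2 and ETV5, 5 of the 10 against 5.66% of all genes. In vector cells 0 of the 10 did so, against 4.57%.

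The fed replicate 3 libraries are described next, since the starvation results turn on them. Vector fed replicate 3 was below both other vector fed libraries for 10 of the 10 genes, as it was for 39.8% of all genes tested. TRPML3 fed replicate 3 was below both for 8 of the 10 (37.4% of all genes). In vector cells fed replicates 1 and 2 lay above all 3 starved libraries for 7 of the 10 genes (17.0% of all genes), and for none of these 7 did fed replicate 3 do so. Fed replicate 3 likewise failed to for 73.2% of all such genes. In TRPML3 cells they did for 8 of the 10 (15.9%), and fed replicate 3 failed to for 3 of these 8 (DUSP4, DUSP5 and DUSP6), against 64.4% of all such genes. Relative to the mean of vector fed replicates 1 and 2, replicate 3 had 17.5% of DUSP6, 6.89% of SPRY4, 28.4% of DUSP5 and 51.3% of SPRY2. The starved mean of that plasmid was 20.4% for DUSP6, 8.06% for SPRY4, 47.5% for DUSP5 and 53.5% for SPRY2, so that replicate 3 was at or below it for all 4. In TRPML3 cells fed replicate 3 had 19.5% of DUSP6 and 17.2% of SPRY4, with starved means of 13.5% and 7.9%, but it kept 70% of SPRED2 and 73.2% of ETV5, where starved cells had 30.4% and 35.4%. TRPML3 fed replicate 3 was thus low in the phosphatases and SPRY4 and nearer to the other fed libraries in SPRED2 and ETV5.

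Immediate early genes are induced by ERK within minutes. For 12 of the 16 immediate early and output genes vector fed replicate 3 was below all 3 starved libraries of its plasmid, against 3 of the 10 ERK feedback genes and 26.4% of all genes tested. TRPML3 fed replicate 3 was so for 8 of the 16, against 1 of the 10 and 24.2% of all genes. EGR1 stood at 210.5, 344 and 39.4 CPM in vector fed and 309, 326 and 196 CPM in vector starved replicates 1, 2 and 3, and at 466, 318 and 49.1 CPM fed and 271, 393 and 199 CPM starved in TRPML3 cells. Both fed replicate 3 libraries were below every starved library, and starved libraries overlapped fed replicates 1 and 2. FOS had the same order, with 17.3, 30.75 and 5.28 CPM in vector fed against 20.6, 24.65 and 48.7 CPM in vector starved libraries, and 50.4, 32.3 and 15.5 CPM against 33.5, 31.0 and 49.9 CPM with TRPML3. Low DUSP6 therefore went with low EGR1 and FOS in fed replicate 3. In the starved libraries it went with EGR1 and FOS levels that overlapped fed replicates 1 and 2. Starved replicate 3 was an exception: its EGR1 (196 and 199 CPM) lay below fed replicates 1 and 2 of both plasmids. Its FOS in vector cells (48.7 CPM) lay above both of those fed libraries. Both were singled out after their values were seen, and other genes of the list differed from them. In vector cells the starved means of JUN, ATF3 and IER3 were 56.1%, 35.3% and 54.5% of the mean of fed replicates 1 and 2, with fed replicate 3 lower still. Fed replicates 1 and 2 lay above all starved libraries of their plasmid for 4 of the 16 genes in vector cells (17.0% of all genes). In TRPML3 cells they did for 5 of the 16 (15.9% of all genes).

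**Figure D3:**
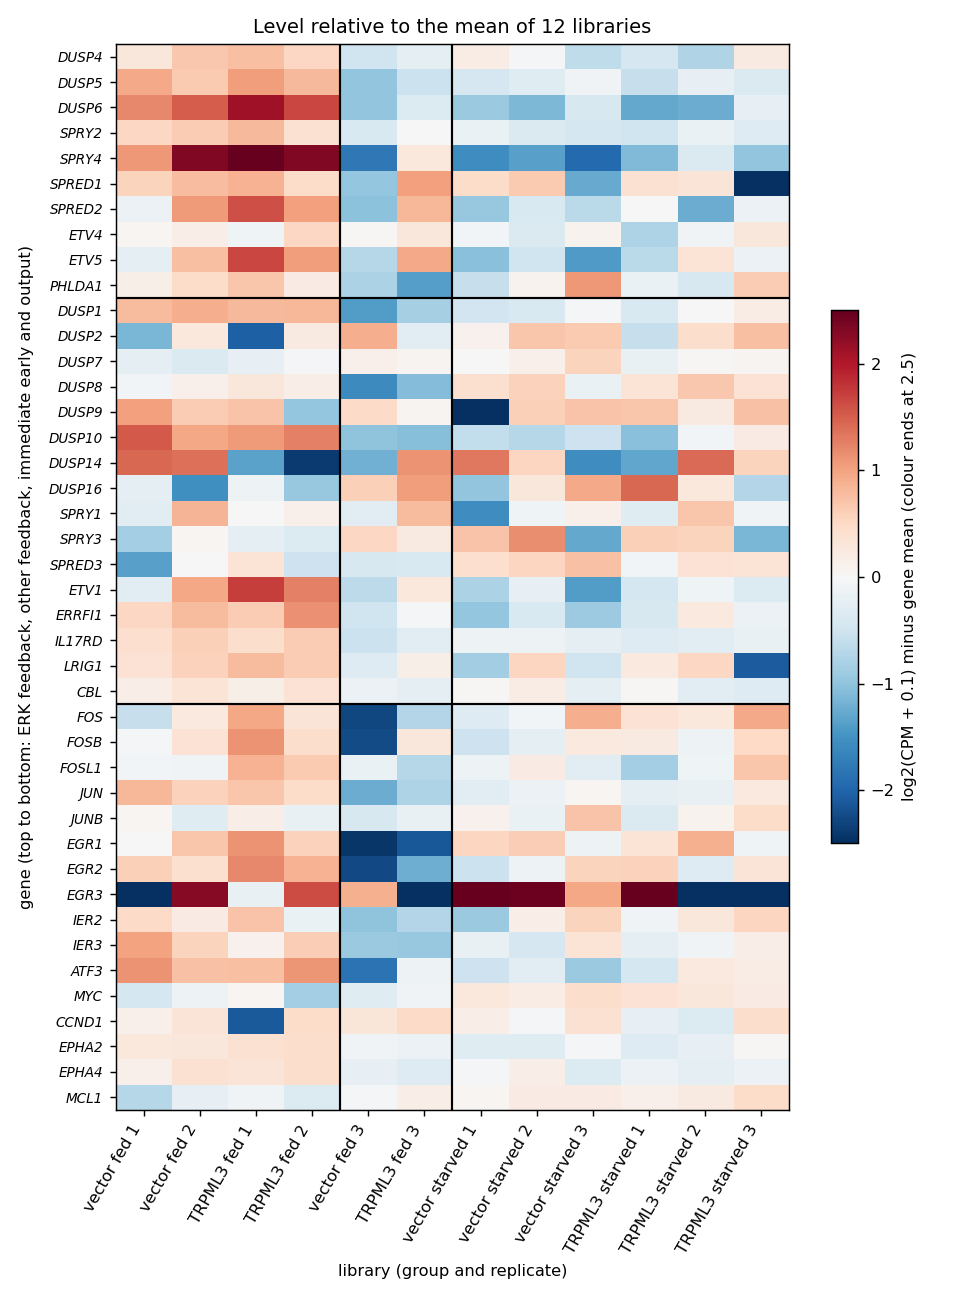
Log2 level, with a pseudocount of 0.1 CPM, of the 10 ERK feedback genes, other feedback genes and immediate early and output genes in the 12 libraries, each gene centred on its mean, with colours ending at 2.5 in either direction. Both fed replicate 3 libraries lie below the gene mean in DUSP6, EGR1 and FOS, whereas the starved libraries lie below it in DUSP6 and near or above it in EGR1.

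The other genes of the pathway came from lists of 112 genes, of which 108 were tested. With all 12 libraries edgeR called 0 of them for starvation. The 16 other feedback genes divided into 9 lower and 7 higher, with a median log2 fold change of -0.15. The smallest p values were those of ERRFI1, an inhibitor of EGF receptors (-0.91 ± 0.27, edgeR adjusted p = 0.363), and ETV1, the third PEA3 factor (-1.21 ± 0.36, adjusted p = 0.363). Receptors were mostly lower, 13 of 15 with a median of -0.47, as were 12 of the 16 ligands tested with a median of -0.54. The share of all genes tested that were lower is not given here, so counts by direction only describe the lists. Among receptors and ligands MET, the receptor of hepatocyte growth factor, had -1.23 ± 0.44 (edgeR adjusted p = 0.428), and the ligand genes TGFA and EGF had -1.06 ± 0.43 and -0.91 ± 0.33.

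Downstream of the receptors the balance was even. The 28 genes of the cascade from adaptors to ERK divided into 14 lower and 14 higher (median -0.0042), and the 8 Ras inhibitors into 4 and 4. RASA2, a Ras GTPase-activating protein, had -0.67 ± 0.16 (edgeR adjusted p = 0.347). PEBP1, which encodes the Raf kinase inhibitor protein, had 0.14 ± 0.095. The adaptor gene SHC1 had -0.97 ± 0.37 and the IGF receptor gene IGF1R had -0.42 ± 0.21. Among transcription factors ETS1 had -0.64 ± 0.25 and CIC, which represses PEA3 genes when ERK is inactive, had 0.90 ± 0.39. Of the immediate early and output genes 9 of 16 were lower, and MYC (0.55 ± 0.15, edgeR adjusted p = 0.363) and MCL1 (0.40 ± 0.13) were higher in starved cells.

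Without replicate 3, edgeR called 10 of these other pathway genes, all lower in starved cells, where 1.94% of all genes tested were called lower. They were 3 feedback genes, DUSP10 (log2 fold change -1.80, adjusted p = 0.0339), the phosphatase gene DUSP1 (-1.13, adjusted p = 0.0259) and IL17RD (-0.74), 2 ligand genes, TGFA (-1.46) and EGF (-1.39), and 2 receptor genes, KIT (-0.76) and INSR (-0.67). The others were JUN (-0.84), ATF3 (-1.16) and ELK3 (-0.73), which encode transcription factors. DUSP1 was high in the same 4 libraries as DUSP5: 86.4, 94.4 and 19.05 CPM in vector fed, 35.8, 38.3 and 48.2 CPM in vector starved, 88.1, 89.2 and 28.3 CPM in TRPML3 fed and 38.3, 50.1 and 57.3 CPM in TRPML3 starved replicates 1, 2 and 3. Both fed replicate 3 libraries were below every starved library.

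To ask whether TRPML3 itself moved the feedback genes, TRPML3 and vector libraries were compared within each serum state. In fed cells edgeR called 0 of the 10, where 0.0111% of all genes were called, and DESeq2 called 0 (0.166% of all genes). All 10 log2 fold changes were positive, with a median of 0.34 (0.165 without replicate 3). Those of DUSP4, DUSP5, SPRY2 and PHLDA1 crossed 0 in some fits with libraries left out. The median of all genes tested is not given here, so the shared sign is only a description. ETV5 had the largest, 1.20 ± 0.45, or 2.29-fold higher (edgeR adjusted p = 1; 1.07 ± 0.53 without replicate 3), and was the 1 gene of the 10 at an unadjusted p under 0.05 (2.21% of all genes). It was also the 1 gene of the 10 whose TRPML3 fed libraries all lay above the vector fed ones, where 3.22% of all genes did so. SPRY4 (1.02 ± 0.87), SPRED2 (0.98 ± 0.50), DUSP6 (0.58 ± 0.72) and SPRED1 (0.50 ± 0.80) came next, and the other 5 lay between 0.04 and 0.17.

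In starved cells edgeR and DESeq2 each called 0 of the 10 for TRPML3 (0.00555% of all genes in edgeR, 0.238% in DESeq2), and none had an unadjusted p under 0.05 (2.2% of all genes). SPRY4 had the largest difference (0.92 ± 0.91), and all its TRPML3 starved libraries lay above the vector starved ones, 1 of the 10 against 3.02% of all genes. ETV5 had 0.86 ± 0.45 (edgeR adjusted p = 1), and the range of the remaining 8 was -0.34 (SPRED1) to 0.28 (SPRED2). Averaged over serum states, edgeR called 0 of the 10 (0.0111% of all genes) and DESeq2 0 (0.161%). ETV5 had 1.03 ± 0.32 (edgeR adjusted p = 1) and was the 1 gene of the 10 at an unadjusted p under 0.05, as were 2.62% of all genes. The average for SPRY4 was 0.97 ± 0.63 and that for SPRED2 0.63 ± 0.36.

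**Figure D4:**
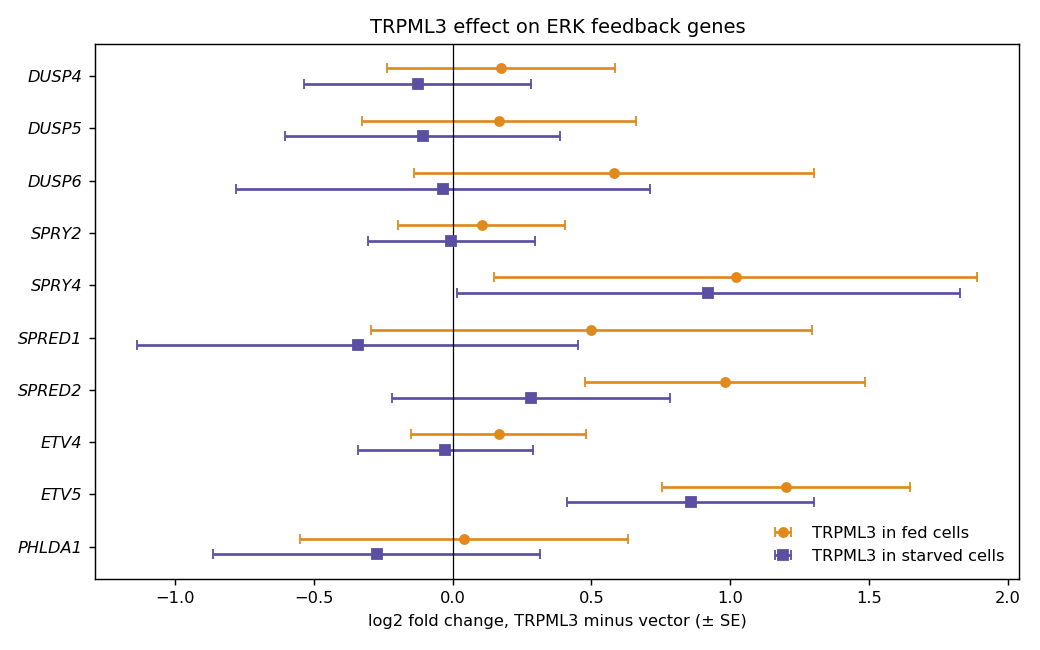
Log2 fold change (TRPML3 minus vector, with SE) of the 10 genes in fed and in starved cells, all 12 libraries. Only ETV5 in fed cells lies more than 2 SE from 0, and its adjusted p is 1.

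Of the 108 other pathway genes tested, edgeR called 0 for TRPML3 in fed cells, in starved cells or on average. Among feedback genes the smallest p for the average was that of ETV1, the close relative of ETV5. ETV1 stood at 6.04, 14.2 and 4.56 CPM in vector fed, 4.14, 6.31 and 2.70 CPM in vector starved, 24.1, 17.4 and 8.67 CPM in TRPML3 fed and 5.34, 6.71 and 5.73 CPM in TRPML3 starved replicates 1, 2 and 3. Its fed groups overlapped, unlike those of ETV5, and the average TRPML3 difference was 0.73 ± 0.35 on the log2 scale (edgeR adjusted p = 1). In the other lists the corresponding genes were the receptor gene FGFR3 (-1.78 ± 0.69), the Ras activator SOS2 (-0.82 ± 0.41), FOSB (0.65 ± 0.38), ETV3 (0.56 ± 0.27), the ligand gene IGF2 (0.47 ± 0.38) and RASAL2 (0.45 ± 0.16), each with an edgeR adjusted p of 1.

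The size of the starvation response with and without TRPML3 was compared through the interaction term. It was negative for all 10 genes, from -0.10 ± 1.30 for SPRY4 to -0.84 ± 1.12 for SPRED1, with a median of -0.31. In edgeR 0 of the 10 passed (adjusted p = 1 for each), 0% of all genes passed (DESeq2 called 0 of the 10 and 0.15% of all genes), and none of the 10 had an unadjusted p under 0.05 (2.07% of all genes). The standard errors, 0.43 for SPRY2 up to 1.30 for SPRY4, leave room for differences in either direction, so that these data do not show the response to be alike or different in the presence of TRPML3.

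Levels of MCOLN3 differed widely among the TRPML3 libraries, at 6211, 4929 and 39970 CPM fed and 41360, 58220 and 16900 CPM starved in replicates 1, 2 and 3. Across these 6 libraries DUSP4 was lower where MCOLN3 was higher (Pearson r = -0.956, exact permutation p = 0.00694, adjusted over 10 genes 0.0417). Spearman's rho was -0.943 (exact permutation p = 0.0167, adjusted 0.167), and r without the 2 libraries farthest from the median of MCOLN3 was -0.97. DUSP6 was the other gene that passed by r (r = -0.952, exact permutation p = 0.00833, adjusted 0.0417). Its rho was -0.886 (exact permutation p = 0.0333, adjusted 0.167), and r without the 2 farthest libraries was -0.751. Its levels formed separate clusters, fed replicates 1 and 2 against the rest, so that this r is not read as a relation. Over the 10 genes r was negative for 9, and none passed by rho. The lowest MCOLN3 levels were those of fed replicates 1 and 2, so that MCOLN3 level, serum and the position of fed replicate 3 cannot be told apart. In vector libraries, with MCOLN3 at 18.45 CPM or less, DUSP4 was likewise lowest in fed replicate 3 among the fed libraries.

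Correlations among the 10 genes over all 12 libraries are not given, because fed replicates 1 and 2 form a separate cluster. Over the 6 starved libraries alone the smallest p that an exact permutation test can give is 0.00139, or 0.0625 for a single pair once adjusted over 45 pairs, so that the test says little about single pairs. None of the 45 passed, and the median r was -0.073. Among all genes tested, those most like DUSP6 over the 12 libraries by Pearson r of log2 CPM were CYP26B1 (0.982), ANKRD33B (0.975), TSC22D1 (0.974) and GPC4 (0.972). These libraries include the separate cluster of fed replicates 1 and 2, so r is a description with no test. CYP26B1, which encodes a retinoic acid hydroxylase, stood at 9.88, 9.28 and 4.59 CPM in vector fed, 5.02, 5.11 and 5.95 CPM in vector starved, 14.0, 10.8 and 5.89 CPM in TRPML3 fed and 3.73, 4.40 and 5.87 CPM in TRPML3 starved replicates 1, 2 and 3. Its fed replicates 1 and 2 lay above the other 8 libraries, as they did for DUSP6. Nearest to the mean standardised level of the 10 genes were ELL2 (0.976), GPR137B (0.962), ITGB8 (0.957) and CYP26B1 (0.956).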

How the data were processed

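Whole-number raw counts per gene were deposited for 12 libraries, with 3 biological replicates per group per the labels. FastQC, fastp, HISAT2, StringTie and DESeq2 and the build GRCh38 are named in the submitters' processing notes, without roles or order. With StringTie among them, the deposited counts may be rounded estimates rather than reads counted directly, which bears on counting error and on levels near 0. The handling of strand, multimapping reads and overlapping genes is not given in the sources used here. The authors' normalized signal (23252 rows), which is the count divided by a size factor, served as an alternative only.

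Counts were tested with edgeR 4.0.16 in R 4.3.3: TMM scaling, filterByExpr by group, a robust quasi-likelihood fit of all 12 libraries with 4 group coefficients (8 residual degrees of freedom), and Benjamini-Hochberg adjustment at 0.05 over 18030 genes. Levels are CPM of the TMM-scaled totals. The floor of 3 counts was at most 0.0978 CPM, and counting error is only part of the spread. Alternatives were DESeq2 1.42.0, other scalings and filters, limma-trend (limma 3.58.1) on log2 of the authors' signal + 1, a replicate block, and libraries left out. The fits were tested on simulated data for average starvation. At a biological coefficient of variation of 0.5, near the common value of 0.527 here, edgeR recovered 4 of 100 log2 changes of 1. It recovered 81 of 100 log2 changes of 2, so a gene not called may still have changed. The genes, lists and rules were chosen with earlier results of these data known. Described are the 10 ERK feedback genes, MCOLN3, in each pathway list the 2 genes with the smallest p for starvation and the 1 for TRPML3, and genes called without replicate 3 or said to be chosen after their values were seen.

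Same-numbered libraries were checked for pairing by correlating deviations from group means over all genes. The fed vector and TRPML3 libraries correlated at 0.11, 0.15 and 0.33 (in order of replicate number), which was taken as pairing. The starved vector and TRPML3 libraries gave much the same, 0.13, 0.095 and 0.32. Fed with starved libraries of one plasmid gave -0.076 to 0.0075. The numbers thus pair libraries across plasmids within a serum state, weakly for replicates 1 and 2, and do not pair fed with starved libraries. The main fit did not use this pairing and took all 12 libraries as independent. The replicate block gave each replicate number a single term over fed and starved libraries, which differs from the pairing found. A fit with pairing within a serum state was not run. P values measure the spread between these samples.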

Additional observations from a re-analysis of the deposited data

How the results depend on the processing

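The count of ERK feedback genes called for average starvation, 0 of 10 with edgeR and all 12 libraries, became 3 with DESeq2, 4 without both fed replicate 3 libraries (added after seeing the data) and 0 to 4 when a library or a replicate number was left out, the 4 coming only without replicate 3. In TRPML3 cells DESeq2 gave 1. For the other pathway genes, calls were summed over all starvation, TRPML3 and interaction comparisons, so a gene could count more than once. There were 0, against 6 with DESeq2, 7 without both fed replicate 3 libraries and 0 to 10 with libraries left out. No share of all genes summed in this way is given. Over all genes, average starvation gave 0 calls with edgeR, 287 with DESeq2, 810 without replicate 3 and 316 without both fed replicate 3 libraries, and TRPML3 in fed cells 2 with edgeR and 30 with DESeq2. The count of correlated pairs of the 10 genes went from 18 over 12 libraries, which form separate clusters, to 0 in the 6 starved libraries, where no single pair could pass, and the count of genes related to MCOLN3 from 2 (DUSP4 and DUSP6) to 0 by Spearman's rho. With the replicate block, 0 of the 10 genes were called in any comparison (SPRY4 in average starvation -2.71, edgeR adjusted p = 0.256), as without it. The block joins fed and starved libraries of a number, so it does not check the pairing found within a serum state. Over all genes the block took TRPML3 calls from 2 to 0 in fed cells, from 1 to 0 in starved cells and from 2 to 1 on average, and starvation calls in vector cells from 1 to 0.

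Directions turned only for differences smaller than their SE with all 12 libraries. Some of these were sizeable, in either direction, once libraries were left out. For PHLDA1, average starvation was -0.171 without both fed replicate 3 libraries, starvation in TRPML3 cells was -0.106 with library size only and -0.387 without both fed replicate 3 libraries, and TRPML3 in fed cells was -0.0044 with library size only and -0.0913 with limma-trend. For TRPML3 in starved cells, SPRY2 was 0.00027 with DESeq2 size factors, 0.00026 with the DESeq2 test and 0.0089 with the replicate block, and DUSP6 was 4.08e-05 with the block, in effect 0 and with no usable standard error. With libraries left out, 15 of 50 fold changes crossed 0. PHLDA1 ranged over -0.632 to 0.651 for average starvation, -0.507 to 0.744 in vector cells and -0.758 to 0.595 in TRPML3 cells, and SPRED1 over -0.506 to 0.262 in vector cells. For TRPML3 in fed cells the ranges were -0.0871 to 0.464 (DUSP4), -0.224 to 0.528 (DUSP5), -0.15 to 0.327 (SPRY2) and -0.421 to 0.445 (PHLDA1). For TRPML3 in starved cells they were -0.656 to 0.143 (DUSP4), -0.564 to 0.236 (DUSP6), -0.127 to 0.16 (SPRY2), -0.738 to 0.186 (SPRED1), -0.0782 to 0.727 (SPRED2), -0.3 to 0.228 (ETV4) and -0.665 to 0.292 (PHLDA1). The cause was not tested. DUSP6 and SPRY4 had as few as 17 counts in a library, which limits their low values.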

Other observations

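Some genes of the pathway lists stood near 0 in single libraries and high in others of their group. These were chosen after their values were seen, and the whole numbers behind them may be rounded estimates, for which a level near 0 need not mean that few reads were there. GAB2, which encodes a docking adaptor of receptor tyrosine kinases, was at 22.65, 25.1 and 13.1 CPM in vector fed replicates 1, 2 and 3 and had 0 counts in all vector starved libraries. In TRPML3 cells it was at 0.024, 16.4 and 0.0326 CPM when fed and at 0, 0 and 26.3 CPM when starved. INSR, the insulin receptor gene, was at 40.7 to 76.7 CPM in 11 libraries and at 0.347 CPM in TRPML3 starved replicate 3, the library that also held the lowest SPRED1 level (2.63 CPM). HBEGF, which encodes an EGF receptor ligand, was at 37.7, 31.8 and 2.04 CPM in vector fed, 4.09, 11.9 and 6.10 CPM in vector starved, 11.8, 28.2 and 8.12 CPM in TRPML3 fed and 0.350, 15.75 and 1.68 CPM in TRPML3 starved replicates 1, 2 and 3.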
